A study of Mus musculus with 6 samples.

Results

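The conjugation enzymes of phase II drug metabolism were followed in mouse intestinal organoids, small epithelial cultures grown here from the small intestine, kept with the thyroid hormone T3 or with vehicle over 17 h. The members are all genes in the deposited table whose symbol begins with Ugt1a, Ugt2a, Ugt2b, Ugt3a, a numbered Sult, a Gst of class alpha, kappa, mu, omega, pi, theta or zeta, or Mgst1, Mgst2 or Mgst3. They numbered 65 of 27179 genes: 20 UDP-glucuronosyltransferases, 21 sulfotransferases, 21 soluble glutathione transferases and 3 membrane-bound ones. All 6 libraries came from wild-type organoids kept in Matrigel drops with Intesticult medium, 3 exposed to T3 at 1e-07 M and 3 to the vehicle for 17 h. Nothing in the labels tells whether the libraries of a group stem from different cultures or mice, so the p-values reflect the spread among these libraries alone, and that spread may be technical.

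Phase II enzymes attach a polar group to drugs, hormones, bilirubin, bile acids and products of lipid oxidation. Glucuronosyltransferases sit in the endoplasmic reticulum and use UDP-glucuronate, sulfotransferases use the sulfate donor PAPS in the cytosol, and glutathione transferases use glutathione. The villus epithelium of the small intestine carries many of them and conjugates compounds before they reach the liver, and thyroid hormones themselves are substrates of glucuronidation and sulfation. In bulk samples, fewer cells of a type and less RNA per cell cannot be told apart.

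Epithelial markers were abundant in every library, with Epcam averaging 39050 normalized reads (reads on a gene after scaling between libraries) with vehicle and 44132 with T3. Among 8 hepatocyte markers Alb stood at 22.3 and 24.3 and Ahsg was listed at 0, but Cps1 averaged 84992 and 91238, and Ttr fell from 2014 to 603. Ptprc of immune cells stood at 0.333 and 1.33, and the endothelial genes Cdh5 and Kdr were listed at 0. Non-epithelial markers were not all absent. Of the 8 endothelial, neural and blood markers 4 were listed at 0. In that list Lyve1 averaged 165 with vehicle and 129 with T3, Tubb3 44.7 and 34.7, and Pecam1 12 and 7.67. Among 10 fibroblast and smooth muscle markers the 2 tested were Vim, at 247 and 218, and Pdgfrb, at 84 and 70.7. Libraries held 28197080 to 29974091 normalized reads on genes. Mean chi-square per gene between replicates was 14.0 and 15.1 in the pairs with T3 replicate 3, against 5.11 between the other T3 libraries. The 12 enterocyte markers summed to 79007 to 85082 normalized reads with vehicle and 121958 to 138524 with T3 (7 of 12 tested higher, 2 lower), and 8 crypt stem cell markers to 99081 to 114239 and 68740 to 77973 (7 of 8 lower). Paneth cell markers summed to 61815 to 67104 and 97086 to 123244 (2 of 6 higher), but without Itln1 to 28873 to 34242 and 23753 to 34875. Tuft cell markers summed to 335 to 429 and 241 to 297. Of the 4 tested 3 were lower, but 2 without any single library and 1 at an adjusted p under 0.01. Immune markers summed to 132 to 165 and 395 to 416 (1 of 2 higher), and without Itgam to 51 to 59 and 39 to 66. Epithelium markers summed to 172585 to 182275 with vehicle and 204553 to 210502 with T3 (6 of 8 higher, 1 lower). Endothelial, neural and blood markers summed to 217 to 236 and 155 to 196. Stomach and colon markers summed to 143 to 154 and 98 to 122 (1 of 2 higher, 1 lower), but without Atp4a to 10 to 19 and 33 to 46. Hepatocyte markers summed to 82813 to 89360 and 90205 to 93074, mostly Cps1, and without it to 1998 to 2127 and 606 to 735. Goblet, enteroendocrine, and fibroblast and smooth muscle sums overlapped. All the other marker sums thus separated the groups. Those of Paneth, immune, hepatocyte, and stomach and colon markers overlapped or changed direction without their highest gene. The part of these sums in the results below was not tested.

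Most expressed conjugation genes differed between T3 and vehicle, with differences between the enzyme classes. All 6 sulfotransferase genes that passed the filter in both groups rose, all 3 membrane-bound glutathione transferase genes fell, and of the 19 tested soluble glutathione transferase genes 14 fell and 2 rose. Among 9 tested glucuronosyltransferase genes 4 fell and 2 rose. Of the 65 members 38 reached 10 normalized reads in 3 or more libraries and entered the limma fit, and 27 did not, 17 of them listed at 0 in all libraries. Sult1a1, the seventh tested sulfotransferase, passed this filter only through its T3 libraries, so its call as higher was fixed by the filter. Of the 38, 11 were called higher and 21 lower at an adjusted p under 0.05, whereas over all 13052 genes tested 24.0% were called higher and 20.8% lower. The groups did not overlap at 32 of the 38, beside 54.9% of all tested genes. Of the 32 called members 31 were also under an adjusted p of 0.05 in the authors' deposited table, all in the direction found here. Both comparisons used the same 6 libraries and these members were already called here, so agreement was likely. The share over all genes with an adjusted p there was 35.1%, without such a prior call. The median log2 fold change was -0.29 over the members and -0.01 over all tested genes, and the median absolute change 0.55 against 0.19. At least 2-fold changes were called for 3 rises, Sult1a1 included, and 7 falls, beside 3.45% and 2.10% of all tested genes. The balance among all genes depended on the scaling, with 3135 higher and 2716 lower as deposited, 2616 and 3474 with upper-quartile scaling, and 2442 and 3853 with equal column totals. Members were called higher and lower in 11 and 21 cases, 11 and 21, and 10 and 23 under the same scalings.

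**Figure D1:**
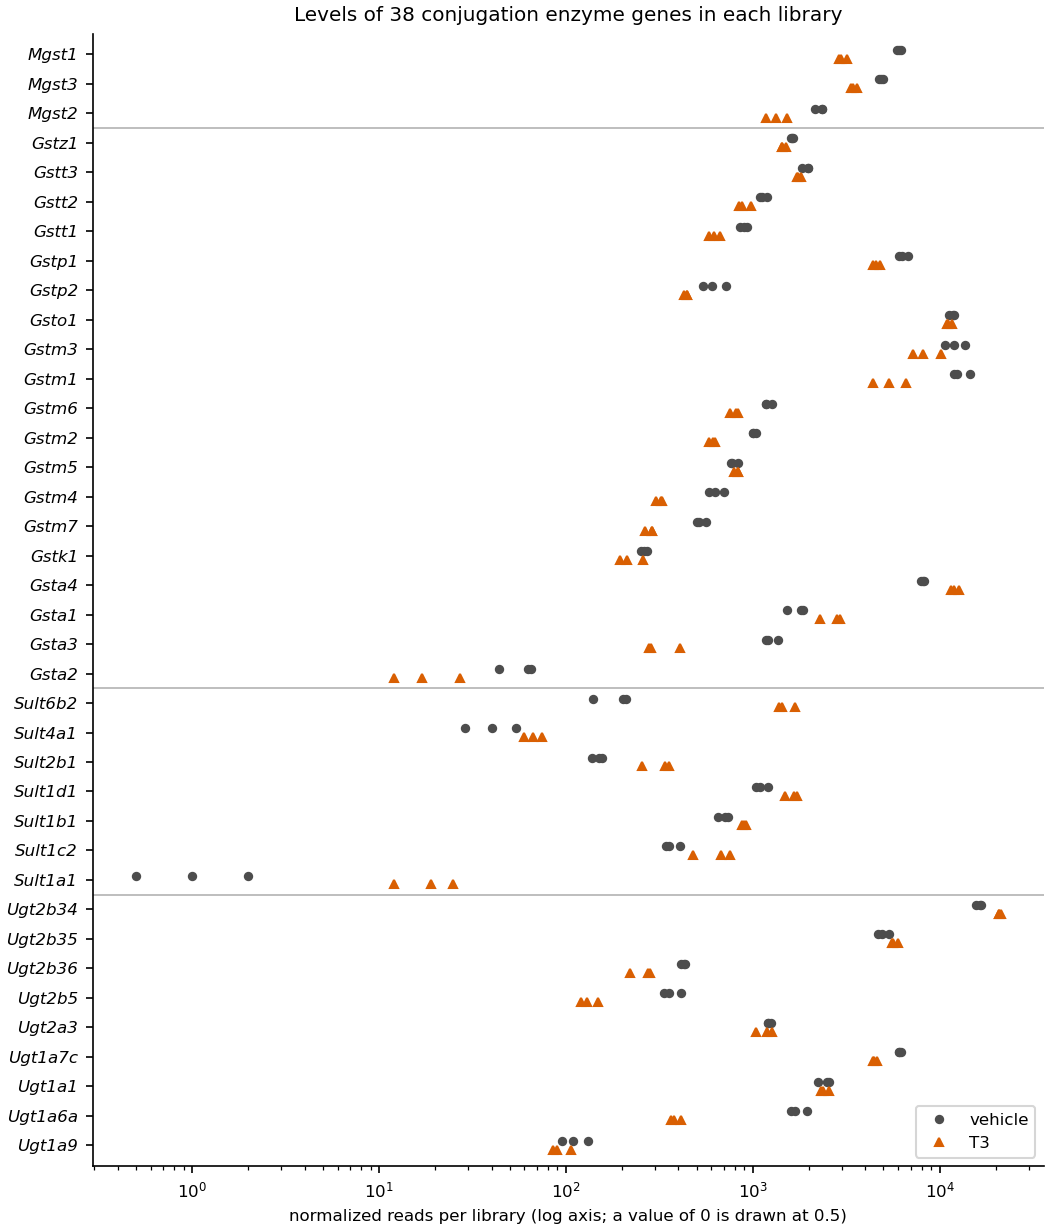
Normalized reads of the 38 tested conjugation enzyme genes in each of the 6 libraries, on a log axis, with vehicle libraries as circles and T3 libraries as triangles and grey lines between enzyme classes. The T3 libraries lie to the right of the vehicle libraries for all 7 tested sulfotransferase genes, Sult1a1 included, and to the left for all 3 Mgst genes.

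**Figure D2:**
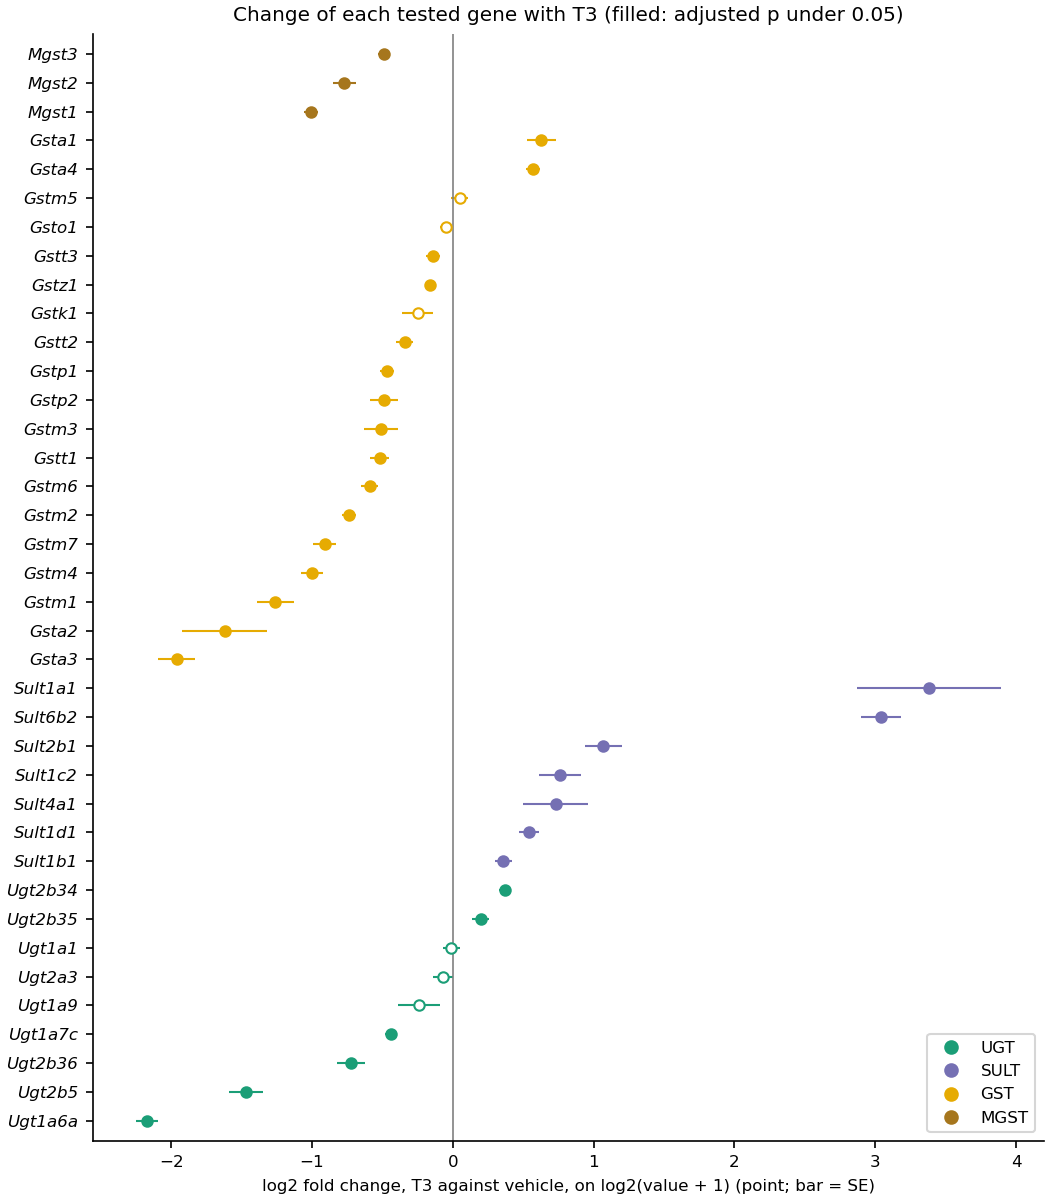
Log2 fold change of T3 against vehicle with its SE for the same 38 genes, coloured by enzyme class, with filled points for genes called at an adjusted p under 0.05. Changes run from -2.17 for Ugt1a6a to 3.04 for Sult6b2, apart from the rightmost point, Sult1a1, whose plotted value depends on the pseudocount. There are 6 open points.

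Sulfotransferases were the scarcest class in vehicle libraries, and the 6 genes that passed the filter in both groups rose. Their reads summed to 2596, 2703 and 2383 in the vehicle libraries and to 5410, 4898 and 4869 in the T3 libraries, a ratio of 1.98 between group means with no overlap. Sult6b2 (gene ID 330440, mm10 chromosome 6, 142785781 to 142804466, 6 exons) carried the largest gain in reads. It stood at 209, 201 and 140 normalized reads with vehicle and at 1682, 1429 and 1375 with T3, a rise of 8.21-fold (log2 3.04 ± 0.14 SE, adjusted p = 2.61e-07). Every T3 library was far above every vehicle library, and the share of Sult6b2 among all sulfotransferase reads went from 7.12% ± 1.12 to 29.5% ± 1.45 (SD, n = 3).

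Sult2b1, which sulfates cholesterol and other hydroxysteroids, stood at 138, 156 and 151 with vehicle and 339, 255 and 354 with T3, a 2.10-fold rise (adjusted p = 0.000127). The 8 Sult2a genes, hydroxysteroid sulfotransferases typical of liver, were all listed at 0 in the 6 libraries. Sult1 was the only sulfotransferase subfamily with several tested members, enzymes that sulfate phenols, catechols and iodothyronines, whose sum went from a mean of 2188 ± 137 to 3180 ± 133 without overlap. Sult1d1, which sulfates catecholamines, went from 1099, 1209 and 1046 to 1718, 1493 and 1669 (1.45-fold, adjusted p = 0.00019). Sult1b1, which acts on phenols and thyroid hormones, went from 712, 738 and 648 to 919, 877 and 900 (1.29-fold, adjusted p = 0.00108). For both neighbours on chromosome 5 all T3 libraries were above all vehicle libraries, at 1.54 to 1.64 Sult1d1 reads for each Sult1b1 read with vehicle and 1.70 to 1.87 with T3.

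Sult1c2 rose 1.69-fold, from 408, 357 and 344 to 673, 758 and 478, with T3 replicate 3 the lowest of the T3 libraries (adjusted p = 0.00257). Sult1a1, the broad phenol sulfotransferase, was near silent at 1, 2 and 0 with vehicle and was listed at 19, 12 and 25 with T3 (adjusted p = 0.000508). It entered the test only through its T3 libraries, so it had to differ, and no fold is given at these levels. Sult4a1, a sulfotransferase known mainly from brain, stood at 29, 40 and 54 with vehicle and 60, 74 and 67 with T3 (1.66-fold, adjusted p = 0.024). The vehicle library closest to the T3 group was replicate 3, and the call was lost without vehicle replicate 1 (adjusted p = 0.0668), vehicle replicate 2 (0.0539) or T3 replicate 2 (0.0784). The remaining sulfotransferase genes, 14 of 21, were under the filter, 13 of them listed at 0.

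Of 11 tested genes of sulfate donor supply, PAP breakdown and sulfate transport 8 were called higher (72.7%) and 2 lower (18.2%), beside 24.0% and 20.8% of all tested genes, with a median log2 fold change of 0.47. Slc13a1, the sodium-sulfate cotransporter, went from 71, 79 and 58 to 720, 586 and 726 (9.67-fold, adjusted p = 9.94e-08). Slc26a6, an apical anion exchanger, rose 4.35-fold from 873 ± 29.5 to 3816 ± 391, and Slc26a2, a sulfate transporter, rose 1.49-fold. Papss2, an enzyme that builds PAPS from sulfate, stood at 873, 814 and 844 with vehicle and at 2123, 1767 and 1774 with T3 (2.23-fold, adjusted p = 1.59e-06). Papss1, the other PAPS synthase and chosen after its values were seen, went the other way, 4139 ± 195 to 3707 ± 191, a fall called at an adjusted p of 0.0285 and not without vehicle replicate 2, vehicle replicate 3, T3 replicate 2 or T3 replicate 3. Of the genes for PAPS transporters, also chosen after their values were seen, Slc35b3 rose 1.39-fold and Slc35b2 fell 1.12-fold (adjusted p = 0.00701). Those that rose included Bpnt1 and Impad1, whose enzymes break down PAP, the product left after sulfation, each 1.27-fold higher and chosen in the same way.

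The Sult6b2 promoter is shown as that of the member with the largest change among those above the filter in both groups. The 250 bases before its RefSeq start (GRCm38.p6, chr6:142804467-142804716, minus strand, printed 5′ to 3′ along the gene) were searched for 3 cores on both strands. These were AGGTCA, bound by thyroid hormone receptors and other nuclear receptors, then GTTAAT, bound by the HNF1 factors of gut and liver, and lastly TGACNNNGC, the core of the antioxidant response element. None of the 3 was found, so the sequence carries no capitals. It does hold AGATAA, the GATA motif of the wider search described with the Gsta3 promoter.

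Sult6b2: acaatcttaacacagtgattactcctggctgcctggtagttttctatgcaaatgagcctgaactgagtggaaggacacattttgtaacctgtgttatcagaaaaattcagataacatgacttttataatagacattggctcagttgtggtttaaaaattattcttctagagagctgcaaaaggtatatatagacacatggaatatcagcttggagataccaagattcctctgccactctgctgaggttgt

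Glucuronosyltransferases split within their gene clusters. The Ugt1a genes form a single locus on chromosome 1 in which each gene has its own first exon and all share the remaining ones, so a Ugt1a gene is a choice of first exon and promoter. All 8 Ugt1a genes listed share exons with one another and keep 890 to 986 exon bases of their own. Ugt1a10 was listed at 0, 1 and 0 with vehicle and at 0 in the T3 libraries although it shares exons with Ugt1a7c at 4384 reads or more, so reads in the shared exons were not given to every gene.

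Ugt1a6a, which glucuronidates simple phenols (gene ID 94284, mm10 chromosome 1, 88134809 to 88220002, 6 exons), stood at 1939, 1600 and 1683 with vehicle and 412, 365 and 378 with T3. This is a fall of 4.50-fold (log2 -2.17 ± 0.08 SE, adjusted p = 4.91e-08), the largest of any member. Ugt1a7c (gene ID 394432, 88095001 to 88220002, 5 exons) fell 1.36-fold, from 6045, 6042 and 6179 to 4423, 4384 and 4629 (adjusted p = 1.15e-05), and its groups did not overlap either. Ugt1a1, the bilirubin-conjugating enzyme (gene ID 394436, 88211959 to 88220002, 5 exons), stood at 2231, 2553 and 2497 with vehicle and 2563, 2368 and 2311 with T3. Its groups overlapped, and its log2 change of -0.01 had a 95% interval of -0.14 to 0.13 (adjusted p = 0.941).

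With these changes Ugt1a6a went from 16.8% ± 1.70 to 5.22% ± 0.235 of Ugt1a reads and Ugt1a1 from 23.4% ± 1.67 to 32.7% ± 1.49 (SD, n = 3), both without overlap, while Ugt1a7c held 58.7% and 60.7%. The ratio of Ugt1a6a to Ugt1a1 reads was 0.869, 0.627 and 0.674 in the vehicle libraries and 0.161, 0.154 and 0.164 in the T3 libraries. Ugt1a9 was low, at 132, 109 and 95 and 107, 85 and 90, and was not called (adjusted p = 0.229). Ugt1a6b, a close relative of Ugt1a6a, reached at most 11 reads and Ugt1a2 at most 7, and both, with Ugt1a5 and Ugt1a10, were under the filter. The sum over Ugt1a went from 10378 ± 75.8 to 7375 ± 154.

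**Figure D3:**
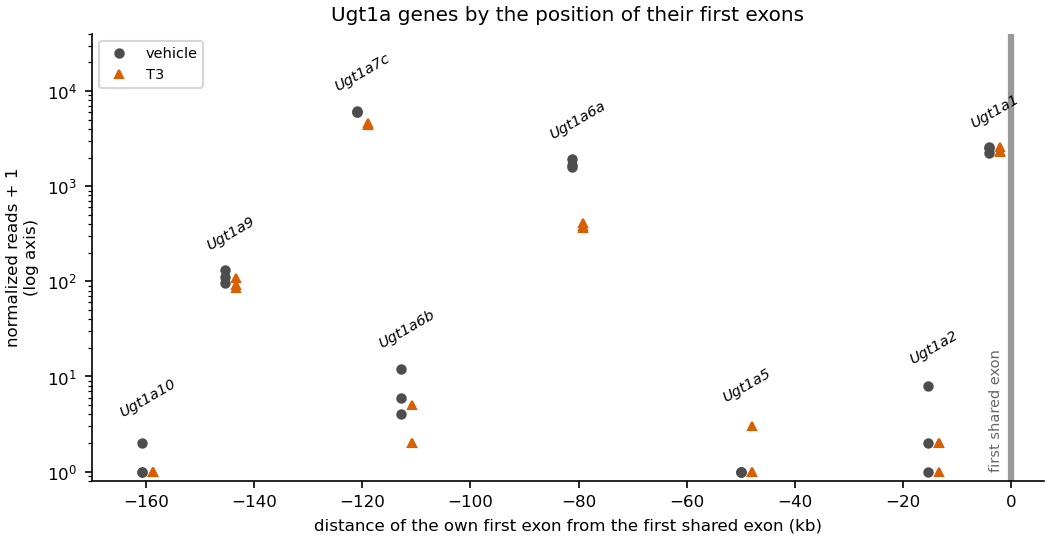
Normalized reads plus 1 in each library, on a log axis, for the 8 Ugt1a genes, placed by the distance of their own first exon from the first exon they share, in kb, with the groups drawn slightly apart. The first exon of Ugt1a6a lies 80.2 kb before the shared exons and that of Ugt1a1 3.1 kb before them, and the T3 libraries of Ugt1a6a and Ugt1a7c lie below their vehicle libraries.

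The promoters of these 3 first exons are shown because they lie in the same locus and their genes differed in response. Each sequence is the 250 bases before the RefSeq start on the plus strand of GRCm38.p6, at chr1:88134559-88134808 for Ugt1a6a, chr1:88094751-88095000 for Ugt1a7c and chr1:88211709-88211958 for Ugt1a1. Capitals mark a match to any of the same 3 cores on either strand.

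Ugt1a6a: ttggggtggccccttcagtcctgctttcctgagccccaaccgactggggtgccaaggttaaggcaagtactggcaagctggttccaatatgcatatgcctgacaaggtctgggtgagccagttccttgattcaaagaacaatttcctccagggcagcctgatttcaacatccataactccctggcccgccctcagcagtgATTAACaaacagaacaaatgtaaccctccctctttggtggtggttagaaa
Ugt1a7c: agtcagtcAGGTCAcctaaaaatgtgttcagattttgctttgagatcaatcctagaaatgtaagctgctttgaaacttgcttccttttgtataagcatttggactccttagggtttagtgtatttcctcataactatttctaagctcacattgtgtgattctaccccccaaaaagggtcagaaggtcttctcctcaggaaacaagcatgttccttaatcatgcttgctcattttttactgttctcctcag
Ugt1a1: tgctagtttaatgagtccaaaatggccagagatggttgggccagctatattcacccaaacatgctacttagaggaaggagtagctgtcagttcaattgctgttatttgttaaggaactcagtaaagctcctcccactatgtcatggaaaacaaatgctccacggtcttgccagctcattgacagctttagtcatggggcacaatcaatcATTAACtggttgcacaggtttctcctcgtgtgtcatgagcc

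GTTAAT was found on the minus strand 50 to 45 bases before the start of Ugt1a6a and 41 to 36 bases before that of Ugt1a1, so the strongly lowered gene and the one with no called change both hold it. Ugt1a7c held AGGTCA 242 to 237 bases before its start.

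The Ugt2 genes, which conjugate steroids, bile acids and fatty acid derivatives, lie on chromosome 5 beside Sult1b1 and Sult1d1. Ugt2b34 (gene ID 100727, 86889770 to 86906937) rose 1.29-fold, from 16580, 16431 and 15607 to 20828, 21154 and 20808 (log2 0.37 ± 0.04 SE, adjusted p = 6.33e-05). Ugt2b35 went from 5381, 4899 and 4669 to 5639, 5554 and 5991, a 1.15-fold rise (adjusted p = 0.0143) that was not called with equal column totals (0.0702) or without vehicle replicate 3 (0.0531). Farther along the cluster 2 genes of lower level moved the other way.

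Ugt2b5 fell 2.77-fold, from 335, 358 and 414 to 129, 120 and 149 (adjusted p = 6.96e-06). For Ugt2b5 41.7% of the 50-base stretches in its transcripts also occur in other genes, mostly in Ugt2b38, so its value is uncertain. Ugt2b36 fell 1.65-fold, from 435, 426 and 413 to 275, 219 and 283 (adjusted p = 0.000359). Ugt2a3, the only Ugt2a gene above the filter, stood at 1206, 1210 and 1248 and at 1270, 1037 and 1188, with overlapping groups (adjusted p = 0.434). Because Ugt2b34 dominated the reads, the Ugt2b sum went from 21986 ± 824 to 27051 ± 180 while the number of tested Ugt2b genes called was 2 higher and 2 lower. Ugt2b1, Ugt2b37 and Ugt2b38 stayed at 3 reads or less in every library, and the 2 Ugt3a genes and the other 2 Ugt2a genes were listed at 0.

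**Figure D4:**
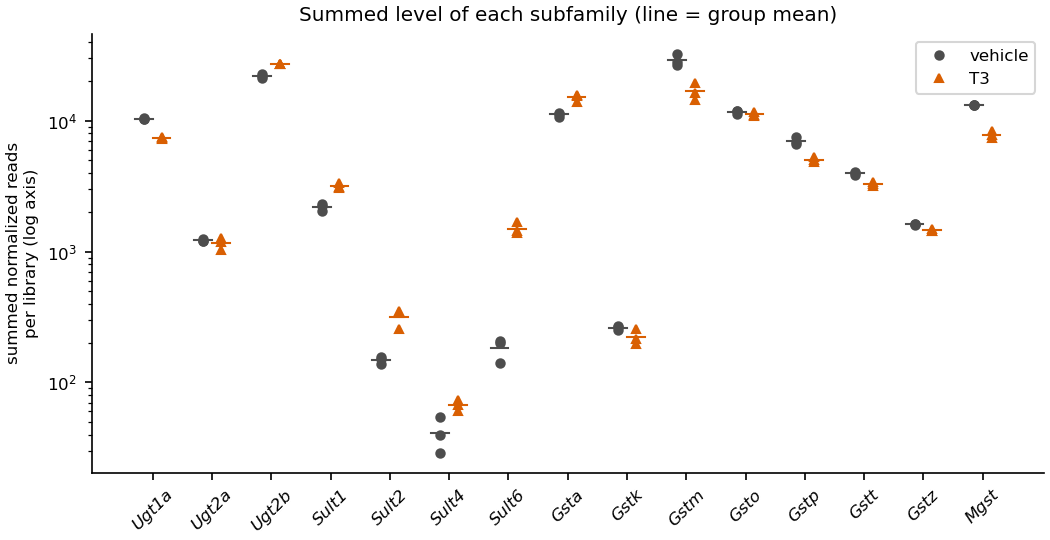
Summed normalized reads of each subfamily that had reads in each library, on a log axis, with vehicle as circles, T3 as triangles and lines at group means. Sums for Ugt2b, Gsta and the 4 Sult subfamilies with reads are higher in all T3 libraries, those for Ugt1a, Gstm, Gstp, Gstt, Gstz and Mgst lower, and those for Ugt2a, Gstk and Gsto overlap.

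Among genes of UDP-glucuronate supply the enzyme that forms it fell. Ugdh, which oxidises UDP-glucose to UDP-glucuronate, stood at 8890, 8714 and 8813 with vehicle and 4269, 3855 and 4400 with T3 (2.11-fold lower, log2 -1.08 ± 0.05 SE, adjusted p = 2.35e-07). Uxs1, which converts UDP-glucuronate to UDP-xylose, rose 2.39-fold from 718 ± 67.0 to 1714 ± 112. Of 9 tested genes in this list 3 were called higher (33.3%) and 1, Ugdh, lower (11.1%), beside 24.0% and 20.8% of all tested genes. With upper-quartile scaling or equal column totals 2 were higher and 1 lower. Slc35d2, a nucleotide sugar transporter, rose 1.45-fold, a call lost without vehicle replicate 3, T3 replicate 2 or T3 replicate 3. Slc35d1, which carries UDP-glucuronate into the endoplasmic reticulum, went from 458, 448 and 471 to 498, 580 and 540 (1.17-fold, adjusted p = 0.0264), a call lost under both other scalings, without vehicle replicate 1, vehicle replicate 2 or T3 replicate 2, and in the authors' deposited table.

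Most soluble glutathione transferases fell, led by the mu class. Gstm genes sit in a cluster on chromosome 3, and 6 of 7 fell. Their reads summed to 26716, 28280 and 32493 with vehicle and to 16393, 14418 and 19555 with T3, without overlap. Gstm1, an abundant mu-class enzyme (gene ID 14862, mm10 chromosome 3, 108012250 to 108017973, 8 exons), fell 2.39-fold, from 11861, 12324 and 14531 to 5370, 4386 and 6576 (log2 -1.26 ± 0.13 SE, adjusted p = 4.14e-05). Gstm3, of about the same vehicle level per kilobase of exon (10047 ± 1244 against 9973 ± 1103 normalized reads per kilobase), fell 1.42-fold, from 10692, 11875 and 13663 to 8177, 7209 and 10175 (adjusted p = 0.00664, but 0.0619 with robust variance moderation). In both genes replicate 3 was the highest library of its group, and the highest T3 library of Gstm3 came close to the lowest vehicle library. Of their 50-base stretches 18.9% in Gstm1 and 28.8% in Gstm3 also occur in other genes, which limits how cleanly they were counted.

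Gstm4 fell 2.01-fold (580, 629 and 705 to 325, 321 and 304) and Gstm7 1.88-fold (565, 502 and 518 to 265, 287 and 288). Gstm2 fell 1.67-fold (1008, 1005 and 1039 to 586, 613 and 624) and Gstm6 1.51-fold (1178, 1182 and 1260 to 838, 808 and 757). All 4 had adjusted p-values of 2.76e-05 or less and groups far apart. Gstm5, at the other end of the cluster and on the opposite strand, stood at 832, 763 and 777 with vehicle and 832, 794 and 831 with T3, and was not called, with part of its exons overlapping 4933431E20Rik (log2 0.05, 95% interval -0.07 to 0.18, adjusted p = 0.487). Gstm1 reads for each Gstm5 read thus went from 14.3, 16.2 and 18.7 to 6.45, 5.52 and 7.91.

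The alpha class went both ways. Gsta4, which detoxifies 4-hydroxynonenal from lipid peroxidation (gene ID 14860, chromosome 9, 78191966 to 78209349), rose 1.48-fold, from 7978, 8281 and 8131 to 12735, 11440 and 11965 (log2 0.57 ± 0.05 SE, adjusted p = 8.27e-06). Gsta1 rose 1.54-fold, from 1523, 1812 and 1851 to 2814, 2280 and 2936 (adjusted p = 0.000739). Gsta3, known in mouse for conjugating the aflatoxin epoxide (gene ID 14859, chromosome 1, 21240589 to 21265559), fell 3.90-fold, from 1202, 1177 and 1357 to 285, 278 and 407 (log2 -1.96 ± 0.13 SE, adjusted p = 2.63e-06). In all 3 genes the groups did not overlap.

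Gsta2 was low, at 44, 65 and 63 with vehicle and 17, 12 and 27 with T3 (3.07-fold lower, adjusted p = 0.00165). Of the 50-base stretches in GENCODE transcripts of Gsta1 90.5% also occur in other genes, mostly in Gm3776, and of Gsta2 49.8%, so reads of these genes could have been split or dropped in counting and their values are uncertain. For Gsta4 the shared percentage was 0 and for Gsta3 0.3%. The share of Gsta3 in alpha-class reads went from 11.2% ± 0.759 to 2.15% ± 0.450, and the alpha-class sum went from 11161 ± 360 to 15065 ± 950, mainly through Gsta4.

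The Gsta3 promoter is shown as that of the soluble glutathione transferase with the largest fall. Its 250 bases before the RefSeq start, which lies 4 bases from the deposited start (GRCm38.p6, chr1:21240335-21240584, plus strand), held TGACNNNGC on the plus strand 121 to 113 bases before the start and GTTAAT on the minus strand 149 to 144 bases before it, in capitals. It also holds AGATAA on the minus strand, which is not marked.

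Gsta3: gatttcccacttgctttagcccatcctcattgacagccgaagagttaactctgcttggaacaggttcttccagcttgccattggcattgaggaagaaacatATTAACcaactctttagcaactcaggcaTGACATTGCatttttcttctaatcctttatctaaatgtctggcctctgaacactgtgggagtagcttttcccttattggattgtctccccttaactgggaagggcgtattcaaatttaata

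Across members the search was a description only. RefSeq promoters were matched by symbol for 57 of 65 members, 69 promoters in all, and 8 motifs were searched on both strands in the 250 bases before the start of these and of 32851 promoters of all genes. AGGTCA was in 15.9% of member promoters and 14.0% of all promoters. Direct repeats of it with 4 or 1 bases between, which contain it, were in 0 member promoters and in 0.0152% and 0.0335% of all. TGACNNNGC was in 5.80% against 10.2%, GCGTG, the core bound by the aryl hydrocarbon receptor, in 14.5% against 28.2%, and TTTATG of CDX factors in 7.25% against 10.8%. GTTAAT was in 20.3% against 6.43% and AGATAA of GATA factors in 17.4% against 9.99%. Members with GTTAAT were called rises (Sult1d1, Sult1a1), called falls (Ugt1a6a, Gsta3), genes not called (Ugt1a1, Ugt1a9, Ugt2a3) and genes under the filter. The last were Ugt1a10, with 1 read at most, and Sult2a3, Sult2a4, Sult2a5, Sult2a6, Sult3a2 and Ugt3a1, listed at 0. Members with AGATAA likewise held called rises, called falls and genes not called, with Sult2a3, Sult2a8 and Sult3a1 listed at 0. The shares of GTTAAT and AGATAA therefore do not describe the expressed members alone.

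The pi, theta and zeta classes fell modestly. Gstp1, a major epithelial glutathione transferase (gene ID 14870, chromosome 19, 4035411 to 4037912), fell 1.38-fold, from 6287, 6049 and 6785 to 4575, 4422 and 4815 (adjusted p = 6.6e-05). Its neighbour Gstp2 fell 1.41-fold, from 539, 606 and 718 to 427, 444 and 442 (adjusted p = 0.00251), but 54.3% of its 50-base stretches occur in other genes, mostly Gstp1, so the pair is not cleanly separated. Gstt1 fell 1.44-fold (859, 928 and 901 to 670, 617 and 585) and Gstt2 1.26-fold (1117, 1099 and 1185 to 846, 978 and 874), both without overlap. Gstt3 stood at 1844, 1962 and 1981 and at 1739, 1802 and 1714, a 1.10-fold fall (adjusted p = 0.0313) lost without vehicle replicate 2 (0.105), vehicle replicate 3 (0.0926), T3 replicate 1 (0.0989) or T3 replicate 3 (0.0705) and, at 0.0858, in the authors' deposited table. Gstz1, maleylacetoacetate isomerase of tyrosine breakdown, fell 1.12-fold, from 1635, 1603 and 1626 to 1429, 1435 and 1497 (adjusted p = 0.0126, but 0.0579 without T3 replicate 1). Part of its exons overlaps Pomt2, and no source used here tells whether reads were counted by strand.

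Omega and kappa classes did not pass the test. Gsto1, which reduces dehydroascorbate, was among the most abundant members at 11759, 11176 and 11943 with vehicle and 11660, 10902 and 11138 with T3, with overlapping groups (log2 -0.05, 95% interval -0.15 to 0.05, adjusted p = 0.38, but 0.0382 and lower with equal column totals). Gstk1, of mitochondria and peroxisomes, stood at 252, 263 and 271 and at 258, 213 and 195 (adjusted p = 0.097, but 0.0244 and lower without T3 replicate 1 and 0.037 with equal column totals). Gsto2 reached at most 6 reads and was under the filter, as was Gstt4.

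All 3 membrane-bound transferases fell without overlap. Mgst1, of the endoplasmic reticulum and outer mitochondrial membrane (gene ID 56615, mm10 chromosome 6, 138140537 to 138156752, 4 exons), fell 2.02-fold, from 6223, 6039 and 5922 to 2971, 2875 and 3182 (log2 -1.01 ± 0.05 SE, adjusted p = 1.98e-07). Mgst2, which can form leukotriene C4, fell 1.71-fold, from 2145, 2347 and 2357 to 1328, 1178 and 1524 (adjusted p = 6.57e-05). Mgst3 fell 1.40-fold, from 4749, 4841 and 4987 to 3438, 3349 and 3597 (adjusted p = 1.12e-05). These genes lie on 3 different chromosomes, and the Mgst sum went from 13203 ± 77.3 to 7814 ± 455.

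The order of levels per kilobase of unshared exon changed accordingly. With vehicle the leading members were Gstm3, Gsto1 and Gstm1 at 10047 ± 1244, 9997 ± 344 and 9973 ± 1103 normalized reads per kilobase, which did not differ beyond their spread, followed by Gstp1 at 8567 ± 505 and Gsta4 at 8486 ± 158. With T3 Gsta4 led at 12575 ± 680, then Gsto1 at 9659 ± 334, Gstm3 at 7088 ± 1258 and Ugt2b34 at 6867 ± 63.7, the last pair within the spread of Gstm3, while Gstm1 stood at 4207 ± 848.

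Genes of glutathione supply went both ways, with 7 of 17 tested genes called higher (41.2%) and 5 lower (29.4%). Over all tested genes these shares were 24.0% and 20.8%. Among those with the smallest p-values, Gsr, which regenerates glutathione, fell 1.20-fold from 9017 ± 250 to 7531 ± 189, whereas Gss, glutathione synthetase, rose 1.23-fold from 3759 ± 147 to 4606 ± 139. Chac1, which breaks glutathione down, rose 1.60-fold from 560 ± 20.8 to 901 ± 91.6, and Slc3a2, a subunit of cystine and amino acid transporters, rose 1.25-fold. Both subunits of the rate-limiting enzyme of glutathione synthesis, chosen after their values were seen, fell slightly, Gclm 1.21-fold from 2062, 2091 and 2138 to 1776, 1688 and 1752, and Gclc 1.18-fold from 2653, 2665 and 2752 to 2279, 2152 and 2413. Of 21 tested other glutathione-linked genes 6 were called higher (28.6%) and 5 lower (23.8%), near the shares of all tested genes, 24.0% and 20.8%. The 4 genes with the smallest p-values were all higher, and the 5 lower fell by 1.21-fold at most. Gpx2, the gastrointestinal glutathione peroxidase, rose 1.99-fold from 13906 ± 683 to 27820 ± 3891, Hagh, a glyoxalase, 1.54-fold, Clic5, of the chloride intracellular channel family, 1.52-fold, and Gpx1 1.28-fold.

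**Figure D5:**
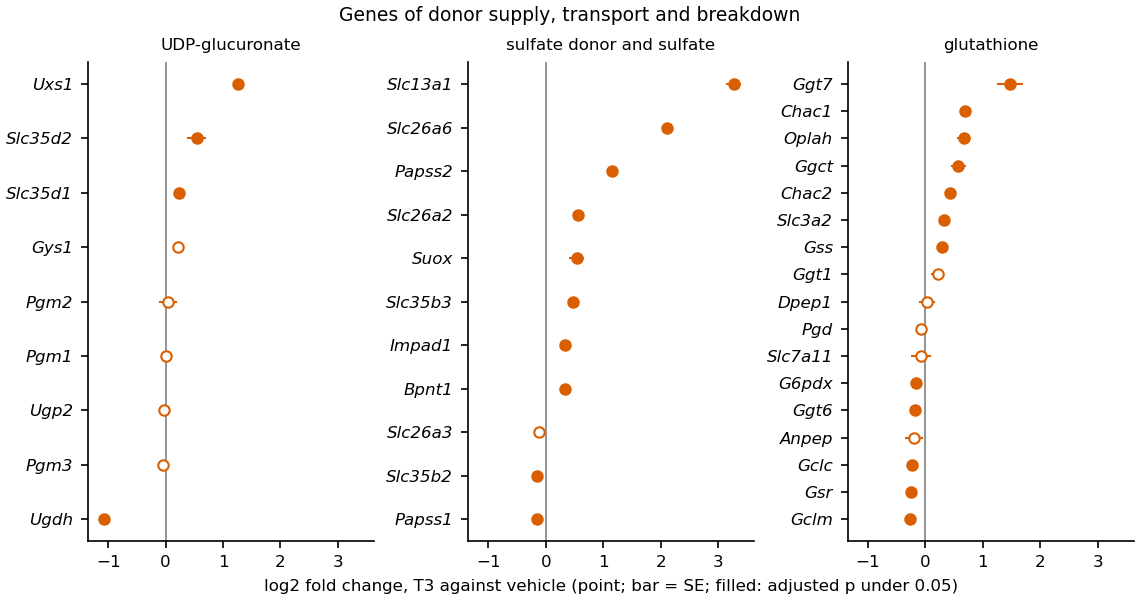
Log2 fold change of T3 against vehicle with its SE for tested genes of UDP-glucuronate supply, sulfate donor supply and transport, and glutathione supply and breakdown, with filled points for called genes. Slc13a1, Slc26a6 and Papss2 lie to the right among the sulfate genes, Ugdh lies at -1.08, and the glutathione genes run from -0.27 for Gclm to 1.47 for Ggt7.

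Targets of NRF2, the factor that induces many glutathione transferases and their cofactor enzymes, were counted outside the members. Of 26 tested 14 were called lower and 4 higher, with a median log2 fold change of -0.20, beside 20.8% and 24.0% of all tested genes. Cbr3, a carbonyl reductase, fell 5.13-fold from 838, 956 and 1045 to 192, 155 and 206, and Abcc3, an exporter of glucuronides, fell 1.73-fold from 2848 ± 135 to 1645 ± 24.3. Fth1, the ferritin heavy chain, rose 2.33-fold from 38706 ± 1661 to 90150 ± 7046, and Srxn1, sulfiredoxin, rose 1.88-fold. Nqo1, a quinone reductase in this list and in that of other conjugating and related enzymes, fell 1.39-fold from 1275 ± 55.9 to 916 ± 61.6.

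Of 29 tested regulators of conjugation genes 15 were called higher (51.7%) and 3 lower (10.3%), beside 24.0% and 20.8% of all tested genes. The counts were 11 and 5 with upper-quartile scaling and 10 and 5 with equal column totals. These scalings also moved the counts over all genes toward lower. Ppard, a lipid-sensing nuclear receptor, rose 10.9-fold from 963, 1025 and 1022 to 11217, 11131 and 10461, and Thra, a thyroid hormone receptor, fell 1.66-fold from 2582 ± 107 to 1555 ± 53.9. Bach1, a repressor of antioxidant response genes, rose 2.21-fold from 3227, 3475 and 3159 to 7621, 7659 and 6545, and Tiparp, a target and brake of the aryl hydrocarbon receptor, rose 2.28-fold from 983 ± 48.0 to 2243 ± 205. Nfe2l2, which encodes NRF2 and was chosen after its values were seen, stood at 7099 ± 77.2 and 7807 ± 224, a 1.10-fold rise (adjusted p = 0.0135) not called with upper-quartile scaling or equal column totals, nor without vehicle replicate 2, T3 replicate 1 or T3 replicate 2. Ahr, chosen in the same way, stood at 891 ± 64.6 and 822 ± 54.6 (adjusted p = 0.213).

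Of 12 tested genes of other conjugating and related enzymes 3 were called higher and 3 lower, 25.0% each way. These shares were near the 24.0% and 20.8% of all tested genes. The list also holds enzymes that are not transferases, and the 3 lower genes, Slc27a2, Nqo1 and Ephx1, were of this kind. The 3 higher genes, As3mt, Tpmt and Nat2, encode transferases. Ephx1 and Nat2 were chosen after their values were seen. As3mt, arsenite methyltransferase, rose 1.43-fold, Tpmt, thiopurine methyltransferase, 1.25-fold, and Slc27a2, a fatty acid and bile acid CoA ligase, fell 1.37-fold. Of 8 tested genes of deconjugating enzymes and related proteins 3 were called higher (37.5%) and 2 lower (25.0%), beside the same 24.0% and 20.8%. Which of them act on phase II conjugates was not tested, so these counts do not describe deconjugation. With upper-quartile scaling or equal column totals 2 were higher and 3 lower. Gusb, the glucuronidase of lysosomes, rose 1.31-fold from 2166 ± 110 to 2838 ± 43.4, Arsb, an arylsulfatase, rose 1.44-fold, Arsg, another sulfatase, fell 1.43-fold, and Naaa, an amidase of lysosomes, fell 1.17-fold.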

How the data were processed

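RNA sequencing of 6 libraries was analysed from the table of 27179 genes deposited by the authors. The submitters' processing notes list STAR, Subread and DESeq2 but no versions. Per the file headers the build was mm10 (GRCm38). The libraries were directional per the labels' protocols, but the strand setting and annotation release are not given in the sources used here. Values deposited by the authors for each sample are a score, reads on each gene after scaling between libraries and rounding, and are not counts. Their mean column equalled the mean of the 6 columns to within 0.833 in every gene. Log2 fold changes, their errors, p-values and adjusted p-values that the authors deposited were used here only as an alternative. Raw depth is unknown, so no interval for counting error is given.

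Groups were compared with limma 3.58.1 (R 4.3.3) on log2(value + 1) with a mean-variance trend and no block, on the 13052 genes that reached 10 normalized reads in 3 or more libraries. P-values are two-sided and adjusted by Benjamini-Hochberg over all of these genes, with calls under 0.05. The pseudocount of 1 understates the fold changes of low genes. The test was tested on simulated data. On the scaled values the mean chi-square per gene between replicate libraries was 4.92 to 15.1. Because these values are not counts, sampling noise gives no exact reference for it. Each library was taken as 1 sample. Levels are means ± SD (n = 3 per group).

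Members and lists (8 pathway, 12 marker, some sharing genes) were chosen with earlier results of these data known. Tested members were named, then up to 4 called genes with the smallest p in each pathway list, and members under the filter reaching 5 reads. The counts of the UDP-glucuronate list leave out an item that is not reported here. Genes named outside this rule are said to be so, apart from marker genes, the end of a plotted range and members given only as near 0 or as sharing exons or sequence. Shared sequence was measured as 50-base stretches in GENCODE M21 transcripts, with all 65 members matched. Alternatives changed the scaling, the filter, the pseudocount, the threshold or the variance model, added a replicate block, left out each library in turn, or took the authors' comparison.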

Additional observations from a re-analysis of the deposited data

How the results depend on the processing

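The direction of every called member held under all alternatives run. Calls were lost in at least 1 alternative for 5 of 32 called members, Gstt3, Gstz1, Sult4a1, Ugt2b35 and Gstm3, and Sult1a1 and Gsta2 were not tested under filters or left-out libraries that removed them. Gstm3 lost its call only with robust moderation (0.0619). At an adjusted p under 0.01, 1753 genes were lower in place of 2716. The members' median log2 fold change of -0.29 was -0.34 with upper-quartile scaling, -0.36 with equal column totals, -0.33 with almost no filter, -0.24 in the authors' deposited table, and -0.40 to -0.31 without single libraries. With equal column totals the ratios of T3 to vehicle sums were 0.923 for Gsto, 0.689 for Gstp, 0.79 for Gstt, 0.856 for Gstz, 1.39 for Sult1, 0.679 for Ugt1a and 1.18 for Ugt2b, and with upper-quartile scaling 0.869 for Gstz, 0.688 for Ugt1a and 1.19 for Ugt2b. Without single libraries they ran from 1.43 to 1.94 for Sult4 and from 1.21 to 1.25 for Ugt2b. Genes not called changed sign: Gstm5 to -0.01 with equal column totals, Ugt1a1 between -0.07 and 0.03 and Ugt2a3 between -0.14 and 0.01 without single libraries. The causes were not tested. Same-numbered libraries did not deviate together (correlations -0.07, 0.028 and -0.057). With 3 libraries per group these values cannot tell whether the libraries were paired. With the replicate block 11 members were higher and 20 lower, and 2933 and 2472 of all genes. Low values limit Sult1a1, Sult4a1 and Gsta2.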
